A study of Mus musculus with 54 samples.

Results

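The EGF-like ligands *Areg* (amphiregulin), *Ereg* (epiregulin), *Btc* (betacellulin), *Hbegf* (heparin-binding EGF-like growth factor) and *Tgfa* (transforming growth factor alpha), their receptor *Egfr*, the receptor's feedback inhibitor *Errfi1* and the sheddase *Adam17* were followed across the follicle wall. These 8 genes were chosen by symbol from the 25149 coding genes of the count and TPM tables, the latter scaled for gene length and library size, and all 8 were present. RNA-seq with Smart-Seq2 was carried out on 54 single follicle sides from CD-1 mice aged 14 to 16 d. Follicles were grown in alginate for 8 d and then kept for 12 h in medium with 10% serum, 10 mIU/ml FSH and 10 ng/ml EGF, with or without 1.5 IU/ml hCG, the LH receptor agonist that induces ovulation. The groups were the putative unruptured side without hCG (n = 15), the putative ruptured side without hCG (n = 14), the unruptured side post-hCG (n = 12) and the ruptured side post-hCG (n = 13). Since every medium contained EGF, a receptor ligand was present in all 4 groups, and a medium without EGF is not part of the design.

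LH acts on mural granulosa cells and raises cyclic AMP, which induces the EGF-like ligands. The ligands are made as membrane precursors, cut loose by ADAM proteases such as ADAM17, and bind EGFR on the same or neighbouring cells, including the cumulus cells around the oocyte, where they start cumulus expansion. The activated receptor signals through Ras and ERK, and *Errfi1* (also called Mig6) is induced downstream of it and binds the kinase domain to shut it off.

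Several features of the libraries bear on all values. Libraries held 1497071 to 2834734 estimated counts, with a median of 2157092. The labels call the tissue cumulus-oocyte complex, whereas the study's methods state that the complex was removed and only the wall sequenced. Of 10 oocyte markers, 8 had a median of 0 TPM in the unruptured sides without hCG, 9 in each of the ruptured sides without hCG and the unruptured sides post-hCG, and 10 in the ruptured sides post-hCG. The summed oocyte marker level was highest in replicate 1 of the unruptured sides without hCG (157 TPM, group median 3.44 TPM). Among the ruptured sides without hCG it was highest in replicate 12 (26.8 TPM, group median 1.03 TPM). Post-hCG it reached at most 8.95 TPM (unruptured) and 1.15 TPM (ruptured). The well codes in the library names place all post-hCG libraries in other plate rows than the no-hCG libraries, so the medium and the plate position cannot be told apart. Within each medium the unruptured and ruptured sides also took separate runs of wells, so the side and the plate position cannot be separated. In bulk samples, fewer cells of a type and less RNA per cell cannot be told apart either.

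*Areg*, *Ereg* and *Btc* lie in 1 cluster on chromosome 5 together with *Epgn* (epigen), another ligand of the family. In the GRCm38 annotation *Epgn* starts at chr5:91027464-91035215, followed by *Ereg* at chr5:91074622-91093646 and *Areg* at chr5:91139599-91148432 on the plus strand, and by *Btc* at chr5:91357261-91402994 on the minus strand. The starts of *Epgn* and *Ereg* are 47.2 kb apart, those of *Ereg* and *Areg* 65 kb, and those of *Areg* and *Btc* 263.4 kb. The other members lie elsewhere, *Tgfa* at chr6:86195223-86275719, *Egfr* at chr11:16752203-16918158, *Errfi1* at chr4:150853919-150868892 and *Adam17* at chr12:21323509-21373632 on the minus strand. *Hbegf* lies on another chromosome.

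RefSeq promoter windows of GRCm38.p6 were used for 6 of the 8 members, and *Ereg*, which rose with hCG on both sides, had no window. Windows are shown for 3 members that rose with hCG on at least 1 side, as the 250 bases before the annotated start. The cyclic AMP response element (CRE), TGACGTCA, was searched on both strands, as was its half-site, TGACG, which every full element also holds. Capitals mark the full element in *Areg* (chr5:91139349-91139598, plus strand) and *Errfi1* (chr4:150854820-150855069, plus strand), and in *Btc* (chr5:91402995-91403244, minus strand) the half-site on the opposite strand, CGTCA. The window of *Errfi1* belongs to the second of its annotated starts and lies inside the annotated gene, downstream of the other start. The antisense gene *1700045H11Rik* overlaps the *Errfi1* gene.
Areg: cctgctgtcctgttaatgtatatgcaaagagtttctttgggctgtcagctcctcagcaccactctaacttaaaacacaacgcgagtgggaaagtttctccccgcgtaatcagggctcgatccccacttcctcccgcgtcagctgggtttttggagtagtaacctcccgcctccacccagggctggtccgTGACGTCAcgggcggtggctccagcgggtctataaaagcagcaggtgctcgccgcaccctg
Errfi1: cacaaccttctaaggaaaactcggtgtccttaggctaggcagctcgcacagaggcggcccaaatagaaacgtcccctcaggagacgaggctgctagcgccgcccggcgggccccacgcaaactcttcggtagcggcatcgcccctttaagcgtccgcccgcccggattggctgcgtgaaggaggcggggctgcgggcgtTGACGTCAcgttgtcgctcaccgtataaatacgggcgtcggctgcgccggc
Btc: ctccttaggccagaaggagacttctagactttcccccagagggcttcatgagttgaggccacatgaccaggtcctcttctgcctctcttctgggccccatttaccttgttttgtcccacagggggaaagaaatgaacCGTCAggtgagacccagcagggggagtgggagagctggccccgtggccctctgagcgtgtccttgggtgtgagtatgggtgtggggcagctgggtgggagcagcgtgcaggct
The full element lay 61 to 54 bases before the start of *Areg* and 51 to 44 bases before that of *Errfi1*. It occurred in 1.55% of 32851 promoter windows of this length, and the half-site in 17.8%. *Btc* held the half-site without the full element, 113 to 109 bases before its start. A further half-site of *Areg*, outside its full element and left in lower case, lay 115 to 111 bases before its start. Neither form was in the windows of *Tgfa*, *Egfr*, *Adam17* or the first start of *Errfi1*. A match describes these letters and is not a measured binding site.

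Without hCG, *Tgfa* was the most abundant of the 5 ligands on the TPM scale, which is per length. On the unruptured side it had a median of 8.45 TPM (range 3.61 to 11.8), whereas *Btc* had 1.57 TPM, *Hbegf* 0.78 TPM, *Areg* 0.57 TPM and *Ereg* 0.52 TPM. *Tgfa* made up a median of 65.2% of the summed ligand TPM there and 55.6% on the putative ruptured side. Post-hCG its share on these sides was 21.6% and 32.8%, while its own level had medians of 9.05 TPM and 7.2 TPM. *Areg* and *Ereg* together held a median of 11.4% and 12.3% of the ligand TPM on the 2 sides without hCG, 65.8% on the unruptured side post-hCG and 33.2% on its counterpart. The summed ligand level had medians of 12.8 TPM and 12.9 TPM on the unruptured and ruptured sides without hCG, 38.7 TPM on the unruptured side post-hCG and 18.5 TPM opposite it. *Egf* itself was near 0, with 8 to 11 counts summed over all libraries of a group.

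**Figure D1:**
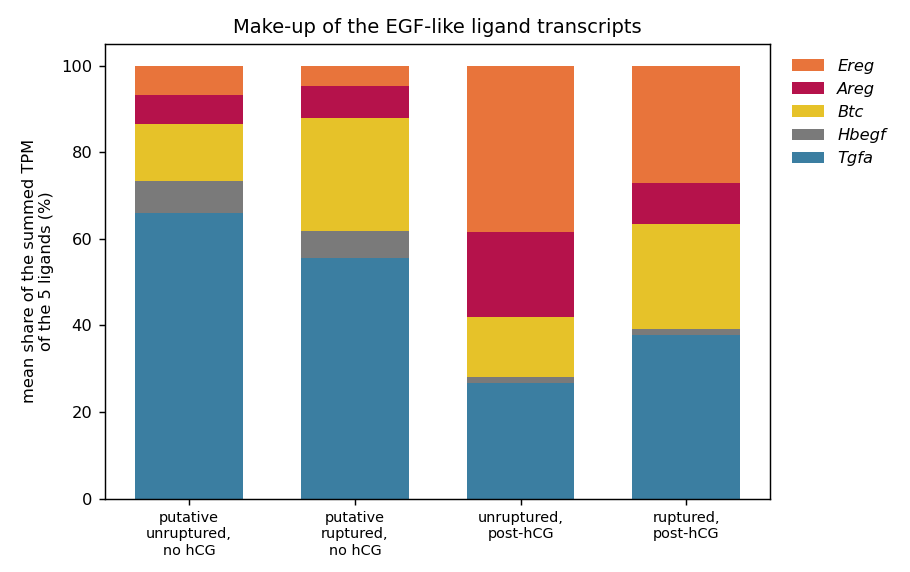
Mean share of each of the 5 ligands (colours) in their summed TPM, in percent, in the 4 groups of follicle sides. *Tgfa* made up 66.0% and 55.6% without hCG and 26.6% and 37.7% post-hCG, while *Ereg* reached 38.3% on the unruptured and 27.0% on the ruptured side post-hCG.

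**Figure D2:**
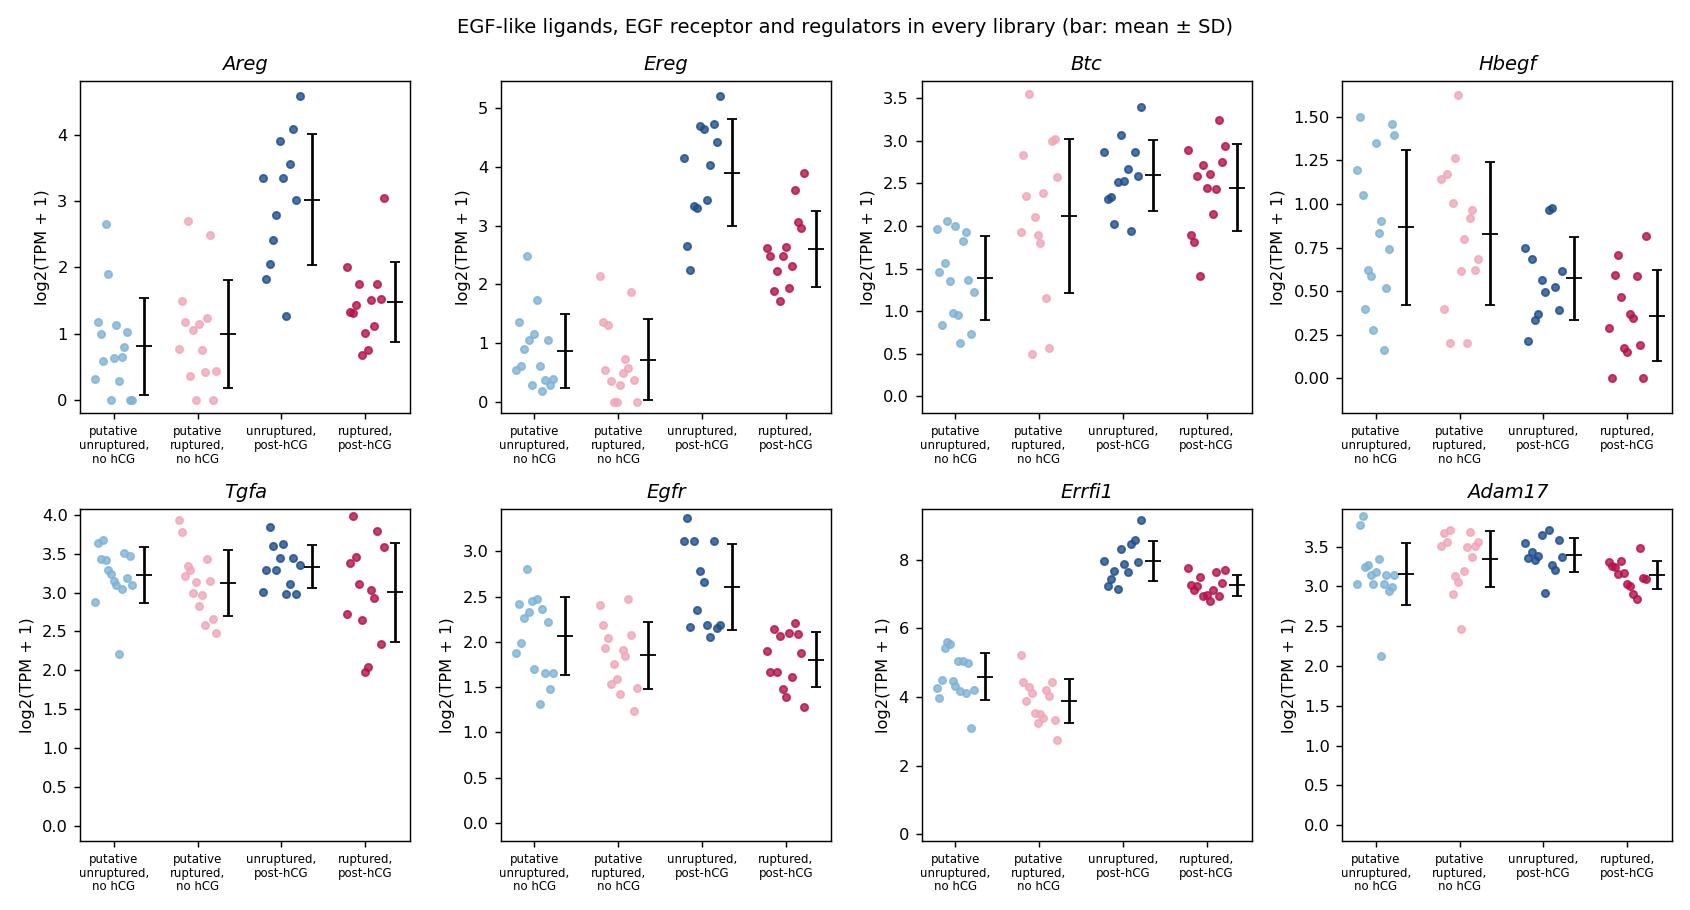
Level of each member as log2(TPM + 1) in all 54 libraries, one point per library, with the mean and SD of each group as a bar. *Errfi1* is the member whose post-hCG and no-hCG libraries do not overlap on either side, *Areg* and *Ereg* are highest on the unruptured side post-hCG, and *Tgfa* and *Adam17* lie at like levels in all groups.

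The hCG response was taken up first on the unruptured side, comparing 12 post-hCG with 15 no-hCG libraries. *Ereg*, *Errfi1*, *Areg* and *Btc* rose, *Tgfa*, *Egfr* and *Adam17* did not pass the test, and *Hbegf* was too low to be tested. Thus 4 of the 7 members tested were higher and 0 lower, where 25.4% of 9320 genes were higher, 27.7% lower and 53.1% changed in either direction (edgeR quasi-likelihood test with Benjamini-Hochberg FDR of 0.05). *Areg* and *Ereg* passed the expression filter mainly through the post-hCG libraries, where they were high, so that these counts are a description. The median log2 fold change of the tested members was 1.5, against -0.03 over all genes tested. With library totals alone in place of TMM (trimmed mean of M-values) scaling, 1455 genes were higher and 3844 lower instead of 2365 and 2582, and the median of all genes was -0.25.

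*Ereg* had a lowest, median and highest level of 0.13, 0.52 and 4.56 TPM without hCG and of 3.72, 16.1 and 35.8 TPM post-hCG. In 11 of the 12 post-hCG libraries it lay above every no-hCG library. Its log2 fold change was 4.0 (SE 0.38, FDR = 1.59e-10), a 16.0-fold rise (95% CI 9.34 to 27.3). *Areg*, the ligand next to it, ranged from 0 to 5.29 TPM around a median of 0.57 TPM without hCG and from 1.42 to 22.9 TPM around 8.14 TPM post-hCG. It had no counts in 3 of the 15 no-hCG libraries, and 8 of the 12 post-hCG libraries exceeded all of them. It rose 8.37-fold (95% CI 4.55 to 15.4, log2 fold change 3.07, SE 0.43, FDR = 4.48e-07). *Btc* lay between 0.54 and 3.16 TPM without hCG (median 1.57 TPM) and between 2.83 and 9.54 TPM post-hCG (median 4.89 TPM), with 10 of 12 libraries above the no-hCG range. It rose 2.83-fold (95% CI 2.1 to 3.81, FDR = 4.14e-07), the smallest change of the 3 called ligands.

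*Errfi1*, the receptor's inhibitor, was the most abundant member in every group. On the unruptured side it ranged from 7.62 to 47.4 TPM without hCG (median 21.2 TPM) and from 142 to 575 TPM post-hCG (median 240.0 TPM). The ranges did not overlap, as was the case for 5.08% of the 9990 genes that averaged 1 TPM or more. The change was 10.2-fold (95% CI 7.23 to 14.4, log2 fold change 3.35, SE 0.24, FDR = 3.53e-13). *Egfr* had medians of 3.65 TPM without hCG and 4.73 TPM post-hCG, and in the count test its log2 fold change was 0.07 (95% CI -0.22 to 0.37, FDR = 0.693). On log2(TPM + 1) values the same comparison gave 0.54 with limma (FDR = 0.0136), so the call on the receptor depends on the unit. *Tgfa* had a log2 fold change of -0.06 (95% CI -0.24 to 0.13) and *Adam17* of 0.21 (95% CI 0.02 to 0.40, FDR = 0.0551). Counts of *Adam17* may include reads of *Iah1*, which overlaps it on the opposite strand, and only 9.26% of its values were whole numbers. *Hbegf* was low throughout, with 1 to 17 counts per library without hCG and 1 to 7 post-hCG, and without the expression filter its log2 fold change was -0.86 (FDR = 0.0613).

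On the ruptured side 13 post-hCG libraries were compared with 14 no-hCG libraries. *Errfi1* and *Ereg* rose, *Btc*, *Tgfa*, *Egfr* and *Adam17* did not pass the test, and *Areg* and *Hbegf* were not tested in the filtered table. The count was 2 of 6 tested members higher and 0 lower, beside 29.7% of 8531 genes higher, 30.4% lower and 60.1% in either direction. *Ereg* passed the expression filter mainly through the post-hCG libraries, at a median of 65 counts against 5.5, so that this count is a description. The median log2 fold change of the tested members was 0.28, against 0.00 over all genes tested. Library totals alone gave 1376 genes higher and 4242 lower instead of 2532 and 2597, with a median of all genes of -0.33.

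*Errfi1* ranged from 5.75 to 36.4 TPM without hCG (median 14.6 TPM) and from 110.0 to 217 TPM post-hCG (median 148 TPM). These ranges did not overlap either, beside 7.04% of 9702 genes. The change was 12.1-fold (95% CI 9.06 to 16.3, log2 fold change 3.60, SE 0.21, FDR = 3.76e-16). *Ereg* was absent from 3 of the 14 no-hCG libraries, where its range was 0 to 3.43 TPM (median 0.425 TPM), and reached 2.27 to 13.9 TPM post-hCG (median 4.57 TPM). It rose 8.01-fold (95% CI 4.48 to 14.3, FDR = 1.69e-07), and 10 of 13 post-hCG libraries exceeded all no-hCG libraries.

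*Areg* on the ruptured side went from a median of 0.885 TPM (range 0 to 5.49 TPM) without hCG to 1.71 TPM (0.61 to 7.22 TPM) post-hCG. Only 1 of the 13 post-hCG libraries lay above the no-hCG range, and counts were few, 56 in all without hCG and 93 post-hCG. Without the expression filter its log2 fold change was 0.81 (95% CI -0.05 to 1.67, FDR = 0.147), and DESeq2 gave 0.83 (FDR = 0.136). *Btc* had medians of 3.7 TPM without hCG and 5.0 TPM post-hCG, all 13 post-hCG libraries lying within the no-hCG range, with a log2 fold change of 0.57 (95% CI 0.02 to 1.11, FDR = 0.0689). It passed in the fit of all 4 groups (FDR = 0.0408) and without replicate 12 of the no-hCG libraries (FDR = 0.0453). *Tgfa* and *Adam17* each had a log2 fold change of 0.00, with 95% intervals of -0.30 to 0.30 and -0.19 to 0.19, and *Egfr* one of -0.10 (-0.44 to 0.23). *Hbegf* fell without the expression filter, by 1.25 on the log2 scale (FDR = 0.0117), from 83 counts in 14 libraries to 32 counts in 13. DESeq2 gave -1.30 (FDR = 0.0056).

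Cell type markers also moved with hCG. Of the granulosa markers 2 of 9 tested were higher and 6 lower on the unruptured side, where their summed medians were 2870 TPM without and 1800 TPM with hCG, and 1 of 8 was higher and 6 lower on the ruptured side, with 12100 and 1820 TPM. Theca and stroma markers went from summed medians of 576 to 736 TPM (1 of 9 higher, 5 lower) and from 48.8 to 152 TPM (1 of 5 higher, 3 lower). The 1 higher was *Star* on each side (2.83 and 3.95), a driver of progesterone production that the sums include. On the ruptured side *Col1a2*, *Col3a1* and *Dcn* fell by 3.75, 3.24 and 4.25. There 1 of the 11 genes had a median of 0 TPM without hCG and 5 post-hCG. The 8 endothelial markers had summed medians of 2.07 and 13 TPM without and with hCG on the unruptured side, where *Cdh5* was the 1 tested and rose (1.40, FDR = 0.000604), and of 0.985 and 7.55 TPM on the ruptured side, while *Tek*, *Emcn* and *Plvap* had a median of 0 TPM in both post-hCG groups. Their part in the responses of the members was not tested.

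**Figure D3:**
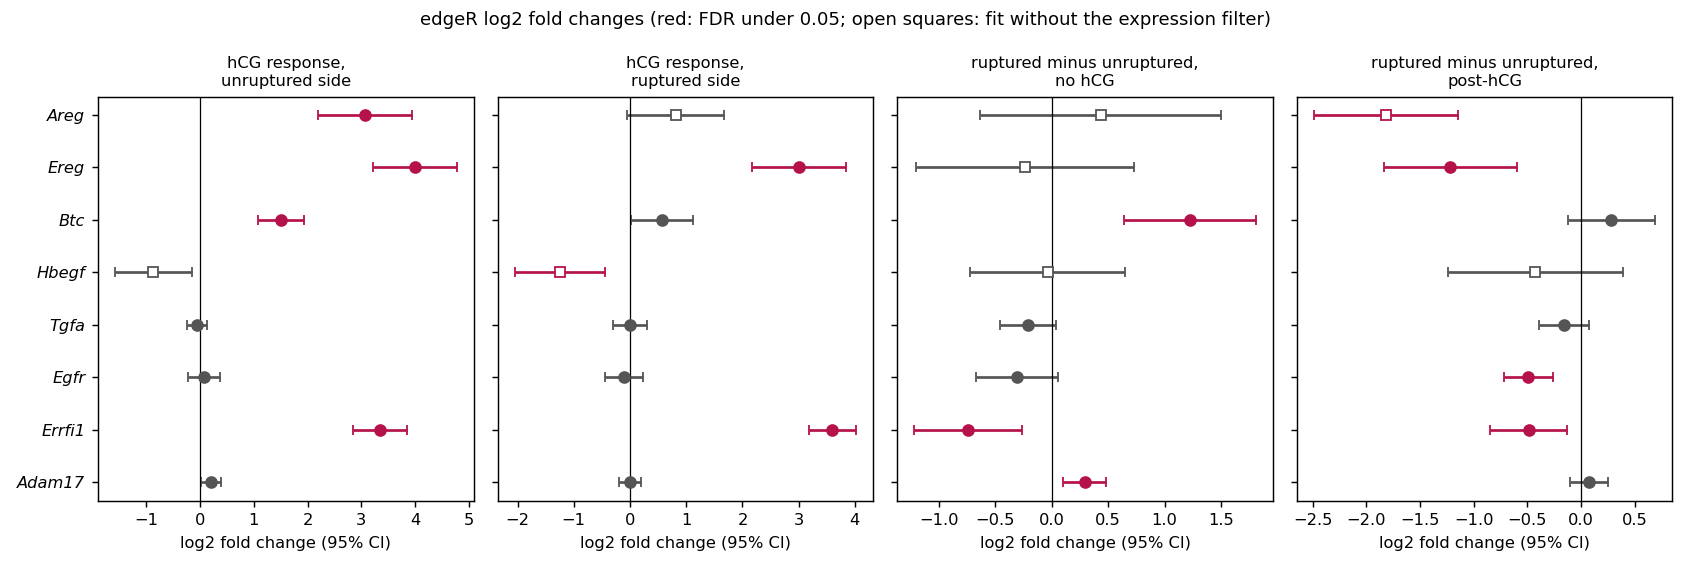
Log2 fold changes with 95% confidence intervals of the 8 members in 4 comparisons, from edgeR, with members past the FDR of 0.05 in red and open squares for values from the fit without the expression filter. *Ereg* and *Errfi1* rose on both sides with hCG (4.0 and 3.35 unruptured, 3.00 and 3.60 ruptured), and post-hCG *Areg*, *Ereg*, *Egfr* and *Errfi1* lay lower on the ruptured side.

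Whether the response differed between sides was tested as an interaction of side and hCG over all 4 groups. Of 10013 genes 8.91% passed, 4.25% with a more positive log2 fold change on the ruptured side and 4.65% with a more negative one. For a gene that fell with hCG on both sides, a negative value means a larger fall on the ruptured side. Of the 7 members tested, *Areg* alone passed. It entered this test mainly through the unruptured side post-hCG, where its median count per library was 25 against 2.0, 2.5 and 6.0 in the other groups, so that this count is a description. Its response was 2.26 log2 units smaller on the ruptured side (SE 0.67, FDR = 0.0238), a factor of 0.208 (95% CI 0.0818 to 0.53). Replicate 12 of the ruptured no-hCG libraries had 4.6 TPM of *Areg*, against a group median of 0.885 TPM. It also had the highest summed oocyte marker level of its group. Without this library the difference for *Areg* was -1.97 and missed the threshold (FDR = 0.0601). *Btc* differed by -0.93 (95% CI -1.66 to -0.21, FDR = 0.0932) and *Ereg* by -0.98 (-2.20 to 0.23, FDR = 0.344), neither past the threshold, and *Ereg* passed with limma on log2(TPM + 1) (-1.15, FDR = 0.0486). For *Errfi1* the difference was 0.25 (-0.37 to 0.88), for *Egfr* -0.18 (-0.62 to 0.27), for *Tgfa* 0.05 (-0.29 to 0.39) and for *Adam17* -0.21 (-0.47 to 0.04).

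The 2 sides were then compared post-hCG, ruptured minus unruptured. *Ereg*, *Egfr* and *Errfi1* were lower on the ruptured side and no member was higher, so that 3 of the 6 tested members were lower where 11.3% of 8585 genes were lower, 10% higher and 21.4% in either direction. The median of the tested members was -0.33, against 0.01 for all genes. With library totals alone 397 genes were higher and 1830 lower instead of 862 and 971, with a median of -0.14, and limma on log2(TPM + 1) gave 214 higher and 2166 lower with a median of -0.21.

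*Ereg*, at a median of 16.1 TPM on the unruptured and 4.57 TPM on the ruptured side, was lower by a log2 fold change of -1.22 (SE 0.30, FDR = 0.00363). In 7 of the 12 unruptured libraries it exceeded all ruptured libraries. The ranges of each of the 8 members overlapped between the sides, post-hCG as without hCG, where 1.15% of 9624 and 0.0304% of 9876 genes had separate ranges. *Areg*, at 8.14 against 1.71 TPM, did not pass the expression filter in this comparison. Without the filter its difference was -1.82 (SE 0.33, FDR = 0.000112), 0.284 of the unruptured level (95% CI 0.178 to 0.452), and DESeq2 gave -1.84 (FDR = 1.74e-05). *Egfr* had 3.16 to 9.31 TPM on the unruptured side (median 4.73 TPM) and 1.43 to 3.62 TPM on the ruptured side (median 2.69 TPM). All 12 unruptured libraries lay above the median of the ruptured side, and the log2 fold change was -0.49 (SE 0.11, FDR = 0.00182).

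*Errfi1* was lower by the same measure, -0.49 (SE 0.18, FDR = 0.0464), at medians of 240.0 and 148 TPM. That call was lost without replicate 12 of the unruptured libraries, the highest in *Areg*, *Ereg* and *Errfi1* (-0.35, FDR = 0.117), in the fit of all 4 groups (FDR = 0.132) and without the expression filter (-0.48, FDR = 0.0584). *Btc* did not pass, at 0.28 (95% CI -0.13 to 0.69) and with medians of 4.89 and 5.0 TPM. *Tgfa* (-0.16, 95% CI -0.39 to 0.07) and *Adam17* (0.07, 95% CI -0.11 to 0.25) did not pass, nor did *Hbegf* without the filter (-0.43, 95% CI -1.24 to 0.39).

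Markers of theca and stroma moved with the side as well. Over 11 such genes the summed level post-hCG ranged from 274 to 1770 TPM on the unruptured side and from 96.5 to 195 TPM on the ruptured side. These sums include *Star*, and 5 of the 11 genes had a median of 0 TPM on the ruptured side, against 1 on the unruptured side. Of the 7 tested, 6 were lower on the ruptured side and 0 higher, while *Cyp17a1*, which defines theca, had a median of 0 TPM on both. Summed immune markers (7 genes) had medians of 12.7 and 0.75 TPM, with the pan-leukocyte gene *Ptprc* at a median of 0 TPM on both sides. Granulosa markers (10 genes) had summed medians of 1800 and 1820 TPM. Of the 5 tested, 3 were higher on the ruptured side and 0 lower, with a median log2 fold change of 0.63. The part of these cell types in the side differences of the members was not tested.

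Without hCG the pattern between sides was another. *Btc* and *Adam17* were higher on the putative ruptured side and *Errfi1* was lower, which made 2 of 5 tested members higher and 1 lower, beside 8.84% of 9063 genes higher, 8.96% lower and 17.8% in either direction. The median of the tested members was -0.21, against -0.01 for all genes. Library totals alone gave 585 genes higher and 905 lower instead of 801 and 812.

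*Btc* had 0.54 to 3.16 TPM on the unruptured side (median 1.57 TPM) and 0.41 to 10.7 TPM on the ruptured side (median 3.7 TPM), a spread that included both its lowest and its highest library without hCG. It was 2.34-fold higher (95% CI 1.56 to 3.5, log2 fold change 1.23, SE 0.29, FDR = 0.00261), and 8 of 14 ruptured libraries exceeded all unruptured ones. On log2(TPM + 1) values limma gave 0.73 (FDR = 0.0605). *Errfi1* went from a median of 21.2 TPM on the unruptured to 14.6 TPM on the ruptured side (-0.74, SE 0.24, FDR = 0.0255), a call that was lost without replicate 5 of the unruptured libraries (-0.66, FDR = 0.0519). *Adam17* was higher by 0.29 (SE 0.09, FDR = 0.0297) at medians of 7.85 and 10.3 TPM, and passed in 7 of 15 alternative analyses. *Egfr* (-0.31, 95% CI -0.67 to 0.06) and *Tgfa* (-0.21, 95% CI -0.46 to 0.04) did not pass. *Areg*, *Ereg* and *Hbegf* were too low to be tested, and without the filter their differences were 0.43, -0.24 and -0.04 with FDR values of 0.651, 0.817 and 0.965.

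Granulosa markers without hCG had medians of 2870 TPM on the unruptured and 12100 TPM on the ruptured side, and 7 of the 9 tested were higher on the ruptured side and 0 lower. Of 9 theca and stroma markers tested, 7 were lower there and 0 higher, with summed medians of 576 and 48.8 TPM. *Amh* was the granulosa marker with a median of 0 TPM on both sides. Summed cumulus markers (6 genes, *Amh* and *Has2* among them) had medians of 11.2 TPM on the unruptured and 34.8 TPM on the ruptured side. Of the 3 tested, 3 were higher on the ruptured side, beside 8.84% of all genes. Their highest sum there, 118 TPM, was in replicate 4, also the highest of its group in *Areg* (5.49 TPM) and *Btc* (10.7 TPM). The part of these differences in those of *Btc*, *Errfi1* and *Adam17* was not tested.

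The order of group means on log2(TPM + 1) put the unruptured side post-hCG first for 7 of the 8 members. *Hbegf* had its highest mean on the unruptured side without hCG. No share of all genes stands beside this count. With limma this unit gave 214 genes higher and 2166 lower on the ruptured side post-hCG. By median CPM, the counts scaled to library size, *Areg*, *Ereg* and *Errfi1* were also highest on the unruptured side post-hCG. There *Btc* had 13.2, against 17.4 on the ruptured side post-hCG, and *Adam17* 58.3, against 63.0 on the ruptured side without hCG. *Tgfa* had 53.6 and *Egfr* 33.7 there, against 56.6 and 33.8 on the unruptured side without hCG. The 7 of 8 thus depends on the unit. On log2(TPM + 1), the step of *Areg* from the unruptured to the ruptured side post-hCG was 1.54 (pooled SD 0.82). Its steps among the other 3 groups, 0.48 and 0.19, were within the pooled SD. *Ereg* had steps of 1.30 and 1.73 beyond the spread, and its 2 no-hCG groups differed by 0.16. *Errfi1* was the member whose 3 steps, 0.70, 2.67 and 0.70, were each larger than the pooled SD. For *Btc*, *Hbegf*, *Tgfa* and *Adam17* no neighbouring groups differed beyond their spread, and for *Egfr* the first step did (0.53, pooled SD 0.46).

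Within groups *Areg* and *Ereg* varied together from follicle to follicle. After each group's mean was removed from log2 CPM, the counts scaled to library size, Pearson's r over 54 libraries was 0.65 for *Areg* and *Ereg*, 0.68 for *Ereg* and *Errfi1*, 0.57 for *Areg* and *Errfi1* and 0.31 for *Ereg* and *Btc*. These are descriptions over libraries that share plate and depth differences. In the unruptured group post-hCG, *Areg* and *Ereg* had r = 0.84, *Ereg* and *Btc* r = 0.89 and *Ereg* and *Errfi1* r = 0.80, over 12 libraries. These values were not shared by all groups. *Areg* and *Ereg* had r = 0.76, 0.57 and 0.47 in the unruptured no-hCG, ruptured no-hCG and ruptured post-hCG groups, and *Ereg* and *Btc* had 0.18, 0.077 and 0.72. On the unruptured side post-hCG, replicate 12 was the highest in *Areg* (22.9 TPM), *Ereg* (35.8 TPM), *Btc* (9.54 TPM) and *Errfi1* (575 TPM). *Egfr* and *Errfi1* had r = 0.73 and 0.79 on the unruptured and ruptured sides without hCG, and r = 0.05 and -0.09 post-hCG. *Tgfa* had r near 0 with *Areg* (0.01) and *Ereg* (0.03) over all libraries and r = -0.46 with *Btc*. *Tgfa* and *Btc* had -0.61 and -0.64 on the ruptured side without hCG and post-hCG, and -0.047 and -0.036 on the unruptured side.

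Over 10013 genes compared, the gene most like *Areg* was *Akap2*, an anchoring protein of protein kinase A (r = 0.69), and the next was *Ereg*. *Ereg* itself was closest to *Akr1b8*, an aldo-keto reductase (0.74), and to *Osmr*, the oncostatin M receptor (0.70). *Osmr* was also the gene most like *Egfr* (0.78), followed by the clone-named gene *RP23-372C7.4* (0.70). *Errfi1* was closest to *Timp1*, a metalloproteinase inhibitor (0.75), and to *Tnfrsf1a*, a TNF receptor (0.72). For *Btc* they were *Rab31* (0.72) and *Far1* (0.68), for *Tgfa* *Trim37* (0.65) and *Scaf4* (0.63), and for *Adam17* *Uggt1* (0.69) and *Gabpa* (0.68). Some of these values were not shared by all groups. *Egfr* and *Osmr* had r = 0.01 on the ruptured side post-hCG, against 0.74 to 0.87 in the other groups. On that side *Egfr* had -0.09 with *RP23-372C7.4* and *Adam17* had 0.07 with *Uggt1*. On the unruptured side post-hCG *Ereg* had 0.23 with *Osmr*.

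**Figure D4:**
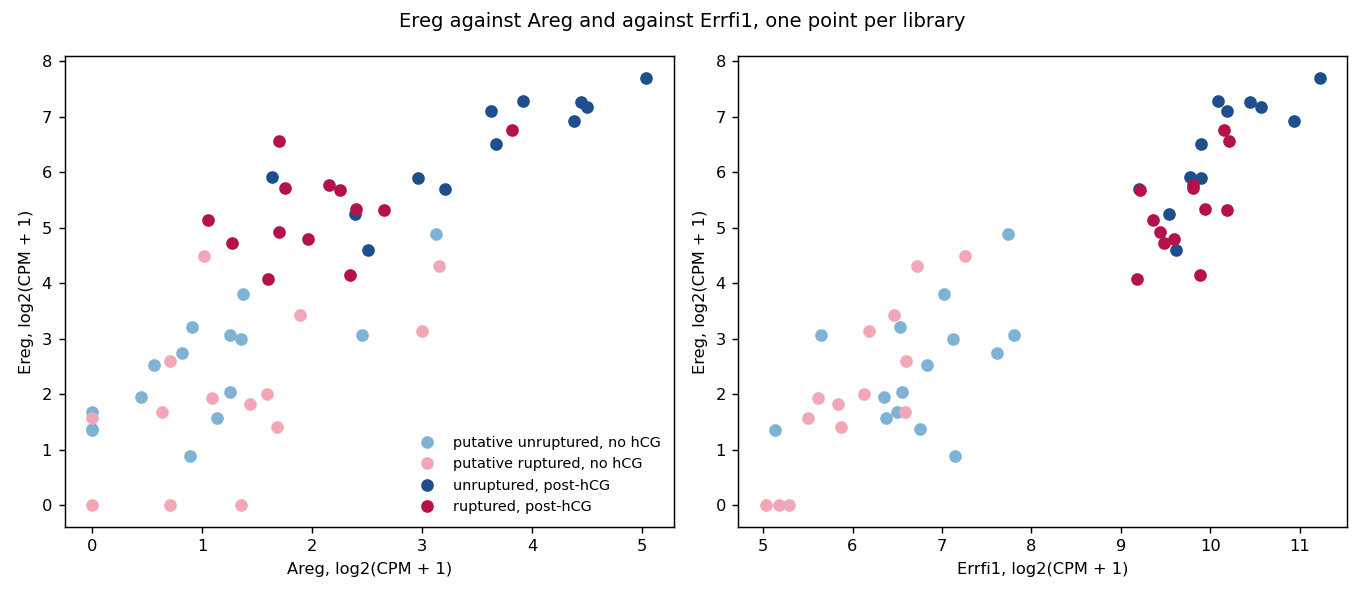
*Ereg* plotted against *Areg* (left) and *Errfi1* (right) as log2(CPM + 1), one point per library, coloured by group. The 2 ligands climb together within the unruptured side post-hCG (r = 0.84 after removal of group means), and post-hCG libraries stand apart from no-hCG libraries along *Errfi1*.

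The coding genes around the cluster did not share 1 direction. *Epgn*, the fourth ligand of the cluster, had 5 and 8 counts in all libraries of the unruptured and ruptured sides without hCG and 62 and 41 post-hCG. It was too low for the expression filter, and without it the log2 fold change was 3.82 on the unruptured side (SE 0.51, FDR = 1.39e-07) and 2.25 on the ruptured side (SE 0.58, FDR = 0.00184). Upstream of *Epgn*, *Mthfd2l*, a mitochondrial folate enzyme whose gene starts at -96.3 kb, did not pass on either side (-0.28 and -0.21), while the chemokine genes *Cxcl1* and *Cxcl5* fell on both sides, and *Cxcl1* fell by 6.02 (unruptured) and fell by 8.54 (ruptured) on the log2 scale. Beyond *Btc*, *Parm1*, which starts 490.2 kb from *Epgn*, rose by 5.41 and 5.93, more than any of the ligands.

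**Figure D5:**
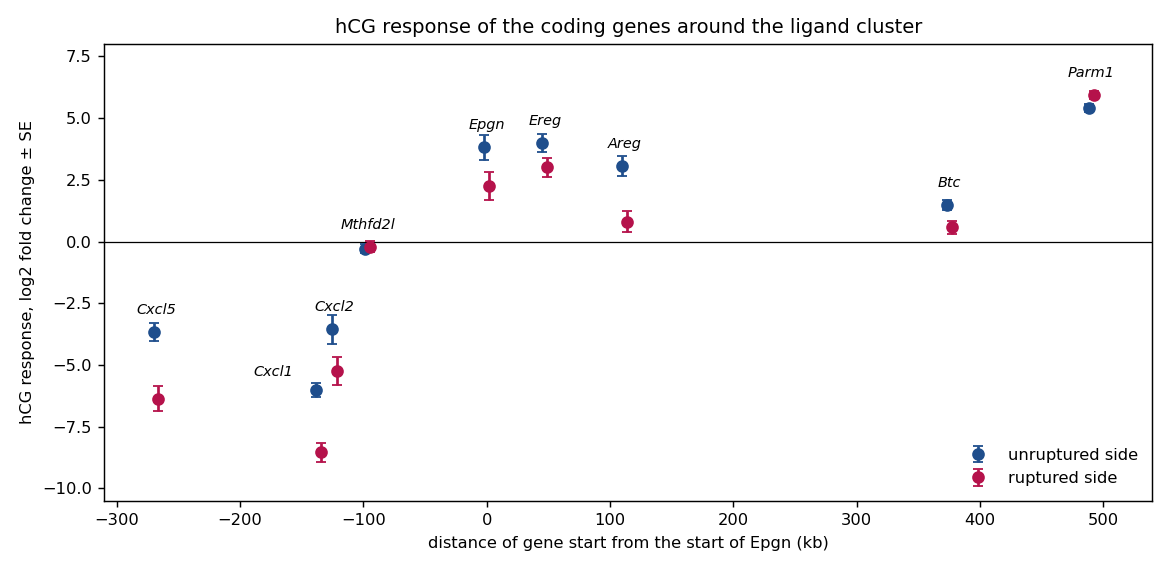
Log2 fold change with hCG (± SE, edgeR without the expression filter) on the unruptured (blue) and ruptured (red) sides against the distance of each gene's start from that of *Epgn* in kb, for coding genes with at least 50 counts over all libraries. The 4 ligands, from *Epgn* (3.82 and 2.25) to *Btc* (1.49 and 0.57), lie between chemokine genes that fell and *Parm1*, which rose.

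The rest of the pathway was described from lists of its other parts, with all ErbB family ligands and receptors first. Of 6 further ligands *Nrg1*, a neuregulin that binds ErbB3 and ErbB4, was the 1 tested on the unruptured side, where it fell with hCG by 2.15 on the log2 scale (SE 0.40, FDR = 3.3e-05), from a mean of 7.71 to 1.61 CPM. Of 3 further receptors *Erbb2*, the partner of EGFR that has no ligand of its own, was the 1 tested. It fell with hCG by 0.39 on the unruptured side (FDR = 0.00513) and by 0.38 on the ruptured side (FDR = 0.00267).

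Of 11 genes of ligand shedding and trafficking, 8 were tested with hCG. On the unruptured side 5 were higher and 3 lower, beside 25.4% and 27.7% of all genes (median log2 fold change 0.99, against -0.03). On the ruptured side 5 were higher and 2 lower, beside 29.7% and 30.4% (median 0.99, against 0.00). The counts of the further lists stand beside these same shares of all genes. *Adam19*, a metalloprotease that can shed neuregulins, rose by 2.26 and 2.33 on the unruptured and ruptured sides (FDR = 2.8e-10 and 2.88e-08). It entered mainly through the post-hCG libraries, at means of 12.4 and 13.4 CPM against 2.58 and 2.56 CPM, so that these counts are a description. *Furin*, a convertase that removes the propeptide of ADAM proteases, rose by 2.14 and 2.46 (FDR = 4.39e-13 and 8.8e-16), on the ruptured side from a mean of 20.1 to 112 CPM. *Timp3*, the tissue inhibitor of ADAM17, fell by 1.84 on the unruptured side (FDR = 3.84e-09) and by 1.23 on the ruptured side (FDR = 0.000134). It was also lower on the ruptured than on the unruptured side, by -1.36 without hCG (FDR = 0.000254) and by -0.76 post-hCG (FDR = 0.00353). *Rhbdf2*, which escorts ADAM17 to the cell surface, was higher on the ruptured side by 0.37 without hCG (FDR = 0.0205) and by 0.38 post-hCG (FDR = 0.00655). In all, 2 of 7 shedding genes were higher and 1 lower on the ruptured side without hCG, beside 8.84% and 8.96% of all genes, and 1 of 8 higher and 1 lower post-hCG, beside 10% and 11.3%.

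Of the adaptors and the Ras-ERK cascade, all 17 genes were tested on the unruptured side, with 4 higher and 4 lower (median -0.11), and 16 on the ruptured side, with 6 higher and 4 lower (median 0.03). Across all genes 25.4% and 27.7% were higher and lower on the unruptured side and 29.7% and 30.4% on its counterpart. *Map2k1* (the kinase MEK1) rose by 1.42 on the unruptured side (FDR = 4.53e-12) and by 0.77 on the other (FDR = 8.13e-10). *Gab2*, a docking protein, fell by 1.27 and 1.95 on the unruptured and ruptured sides (FDR = 2.41e-06 and 8.09e-12). Between the sides, 1 of 17 was higher and 4 lower on the ruptured side without hCG (8.84% and 8.96% of all genes), among the latter *Hras* by -0.51, and 0 higher and 2 lower post-hCG (10% and 11.3%), among them the adaptor *Shc1* (-0.75, FDR = 2.47e-06).

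Of 18 feedback genes of the receptor and of ERK, 15 were tested on the unruptured side, of which 2 rose and 6 fell with hCG (median -0.20, with 25.4% and 27.7% of all genes higher and lower), and 11 on the ruptured side, of which 3 rose and 2 fell (median -0.01, with 29.7% and 30.4%). *Cblb*, a ubiquitin ligase of the receptor, rose by 1.04 and 0.44 on the unruptured and ruptured sides (FDR = 1.64e-08 and 0.00643), and *Lrig1*, a membrane protein that lowers ErbB receptor levels, rose by 0.54 and 1.25 (FDR = 0.00531 and 2.32e-10). *Rasa1*, a GTPase activator that switches Ras off, fell by 0.87 on the unruptured side. *Dusp4*, a phosphatase of ERK, fell by 0.55 on the unruptured side (FDR = 0.00416) and fell by 1.15 on the ruptured side (FDR = 0.000303), where it was the lower post-hCG (-1.17, FDR = 1.34e-05). None of these was as large as the rise of *Errfi1*. Post-hCG 4 of the 13 tested were lower on the ruptured side and 0 higher, beside 11.3% and 10% of all genes. Without hCG 0 of the 13 tested passed (8.84% higher and 8.96% lower among all genes), with a median side difference of -0.30.

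Of 15 transcription factors that respond to ERK, 11 were tested with hCG on each side, and 4 rose and 6 fell on the unruptured side and 3 rose and 5 fell on the ruptured side (medians -0.27 and 0.09). Of all genes 25.4% and 29.7% were higher and 27.7% and 30.4% lower on these sides. *Fosl1* rose by 3.21 and 3.76 on the unruptured and ruptured sides (FDR = 1.24e-12 and 3.98e-14). It entered mainly through the post-hCG libraries, at means of 12.5 and 11.5 CPM against 1.31 and 0.77 CPM, so that these counts are a description. *Jun*, its partner in AP-1, fell by 3.22 and 4.39 (FDR = 4.18e-13 and 2.21e-17), from means of 399 and 510.0 to 42.7 and 24.3 CPM. Between the sides *Etv5* was the 1 of 10 lower without hCG (-0.34, FDR = 0.0105, beside 8.96% of all genes), and post-hCG 2 of 10 were lower (beside 11.3%), *Jun* by -0.82.

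Genes of cumulus expansion, the best known outcome of EGF-like ligands in the follicle, were mostly low in the wall, with 2 of 6 tested in each hCG comparison. On the unruptured side both rose, beside 25.4% of all genes, *Ptgs2* (prostaglandin synthase 2) by 1.72 (FDR = 3.57e-05), and on the ruptured side the same number of genes, with a median of 0.58, did not pass, beside 29.7% higher and 30.4% lower. Without hCG 3 of the 6 passed the filter, and these 3 were higher on the putative ruptured side, beside 8.84% of all genes. *Has2*, the hyaluronan synthase (1.92, FDR = 6.79e-05, mean 11.2 against 2.95 CPM), entered mainly through the ruptured side, where it was high, so that this count supports nothing. Post-hCG 2 of 4 were higher there, beside 10% of all genes, *Ptgs2* by 0.83 (FDR = 0.0366). Of the genes left out with hCG, *Has2*, *Il6* and *Sult1e1* changed when no filter was applied. *Ptx3* did not pass on the unruptured (-0.65, FDR = 0.411) or the ruptured side (-1.18, FDR = 0.127). *Has2* fell by 1.32 on the unruptured side (FDR = 0.00848) and fell by 4.87 on the ruptured side (FDR = 1.88e-11). *Il6*, an interleukin gene, rose by 3.25 and 3.22 (FDR = 5.51e-10 and 6.75e-11), and *Sult1e1*, an estrogen sulfotransferase, by 5.11 and 4.69 (FDR = 3.54e-11 and 2.69e-12). Post-hCG the side difference of *Has2* without the filter was -1.67 (FDR = 0.0416).

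Upstream of the ligands, 11 of 14 genes of the LH receptor and cyclic AMP relay were tested with hCG on each side, and 5 rose and 3 fell on the unruptured side and 4 rose and 4 fell on the ruptured side (medians 0.03 and 0.11), where 25.4% and 29.7% of all genes were higher and 27.7% and 30.4% lower. *Adcyap1*, which encodes the cyclic AMP raising peptide PACAP, rose by 7.89 and 7.01 (FDR = 1.61e-20 and 3.61e-16). It entered through the post-hCG libraries, at means of 106 and 67.3 CPM against 0.403 and 0.463 CPM, so that these counts are a description. Like *Ereg* it was lower on the ruptured side post-hCG (-0.67, FDR = 0.0458), whereas *Lhcgr*, the LH receptor, was higher there (1.28, FDR = 0.00041, means of 1390 against 569 CPM). *Prkar2b*, a regulatory subunit of protein kinase A, fell by 1.73 on the unruptured side (FDR = 1.08e-05) and fell by 1.97 on the ruptured side (FDR = 1.84e-09). *Npr2*, the receptor of C-type natriuretic peptide, fell by 1.68 and fell by 2.22 on them (FDR = 8.34e-07 and 4.92e-09). Without hCG 4 of 9 were higher on the putative ruptured side, beside 8.84% of all genes, and *Prkar1a* was the 1 lower (-0.28, FDR = 0.0438), beside 8.96%. *Nppc*, the gene of that peptide, was higher by 2.20 (FDR = 0.000114), and like *Has2* it entered mainly through that group, at a mean of 13.7 against 2.95 CPM.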

How the data were processed

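Smart-Seq2 libraries were made from single follicle sides by the authors, who mapped reads to GRCm38 using HISAT2 on a shared cloud platform, adjusted the counts for batch with ComBat-seq and derived TPM. What was deposited are such estimated counts (72.2% of non-zero values whole) and TPM per coding gene; the counting program, the annotation and the batches are not given in the sources used here. Batch correction can alter the spread between libraries, so p-values rest on corrected counts.

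After rounding, genes passing filterByExpr (min.count 10, min.total.count 15) entered edgeR 4.0.16 (R 4.3.3) with TMM factors, and a two-sided quasi-likelihood test with Benjamini-Hochberg FDR of 0.05 over all genes tested was run in 5 comparisons. Each side comparison and each hCG comparison was fitted on its own 2 groups, and the interaction on all 4. Comparisons share groups and are not independent. SE is the log2 fold change divided by the square root of F. Alternatives were DESeq2 1.42.0, limma 3.58.1 on log2(TPM + 1) or log2(TPM + 0.1), other scalings and filters, thinned counts, the replicate number as a block, and leaving out 6 libraries in turn, chosen after seeing the data. The edgeR, DESeq2 and limma steps were tested on simulated data. Levels, shares and correlations used Python 3.11.15 with pandas 2.3.3, and correlations used log2 CPM with a prior count of 2. Named pathway genes were, for each list and comparison, the gene with the largest change in each direction past the FDR if it averaged 1 CPM or more, and the 2 genes most like each member. Some genes that this rule names are not reported here. The members and lists were chosen with earlier results of these data known. A follicle may have given both sides; the labels do not say which, and libraries are treated as separate samples. Counts give counting error only, and no 2 libraries of a group were alike within sampling noise.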

Additional observations from a re-analysis of the deposited data

Results flagged for a closer look

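The response to hCG differed between the sides by a test of the difference itself, the interaction of side and hCG, for *Areg* and for 8 pathway genes named above. The values are log2 units, ruptured minus unruptured response. *Areg*, the ligand, had -2.26 (FDR = 0.0238), with a rise on the unruptured side of 3.07 and 0.81 on the ruptured side without the expression filter. *Nrg1*, a neuregulin, had -2.08 (FDR = 0.0495), with 0.304 CPM on average on the ruptured side post-hCG. *Hras* had 0.74 (FDR = 0.0257) and *Map2k1*, the kinase MEK1, -0.65 (FDR = 0.0012). Among feedback genes *Lrig1* had 0.71 (FDR = 0.0201) and *Cblb* -0.60 (FDR = 0.0301). *Jun* had -1.17 (FDR = 0.00907), having fallen further on the ruptured side. *Has2* had -3.59 (FDR = 0.000662) and *Nppc* -3.40 (FDR = 0.0314), both higher on the putative ruptured side without hCG, at means of 11.2 and 13.7 CPM, and at 0.302 and 0.198 CPM there post-hCG. They passed the expression filter mainly through that high group, as *Areg* did through the unruptured side post-hCG, and the filter thus favoured a difference.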

How the results depend on the processing

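The calls of *Ereg* and *Errfi1* with hCG on both sides, of *Areg* and *Btc* with hCG on the unruptured side, and of *Ereg* and *Egfr* between the sides post-hCG held in every alternative that tested them. Over single members and comparisons, 410 alternative values kept their direction and side of the threshold, 17 lost the call, 10 gained it and 32 changed sign, each of the last from a value that was not called. The cause was not tested unless named here.

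With library totals alone, 4 members were called with hCG on the ruptured side, and *Adam17* had -0.34 there, -0.017 on the unruptured side and -0.082 between the sides post-hCG. *Egfr* had -0.15 with hCG on the unruptured side and *Tgfa* -0.030 in the interaction. With genes of a mean of at least 20 counts, 2 members were called with hCG on the unruptured side and 0 in the interaction, since low members were not tested, and *Adam17* had -0.0097 on the ruptured side. There it had -0.0013 with DESeq2, -0.0042 with RLE size factors and -0.030 with thinned counts. *Tgfa* had 0.0050 there in the fit of all 4 groups, 0.0023 with DESeq2 and 0.011 without the filter.

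On log2(TPM + 1), with or without the filter, limma gave *Adam17* -0.20 with hCG on the ruptured side and -0.25 between the sides post-hCG, *Tgfa* 0.11 with hCG on the unruptured side and -0.23 in the interaction, *Btc* -0.14 between the sides post-hCG and *Errfi1* -0.00089 in the interaction. With log2(TPM + 0.1) these were -0.21 and -0.27 for *Adam17*, 0.12 and -0.28 for *Tgfa* and -0.18 for *Btc*. Between the sides without hCG limma called 1054 genes and 1 member (pseudocount 1), 1051 genes and 1 member (pseudocount 0.1), and 1034 genes and 0 members without the filter, against 1613 genes and 3 members. In the interaction limma on log2(TPM + 1) called 2 members.

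Leaving out single libraries gave -0.088 to 0.024 for *Egfr* and -0.029 to 0.031 for *Tgfa* with hCG on the ruptured side, and 0 to 1 members in the interaction. Of 14 genes most like a member by Pearson's r, 8 were also named by Spearman's rho.

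Deviations of same-numbered libraries had median correlations of 0.0031, 0.037, -0.07 and -0.02 in the 4 comparisons of 2 groups. Between the sides single values reached 0.39 without hCG and 0.232 post-hCG. Follicles with and without hCG were different ones, so that only the side comparisons could hold pairs. These values do not settle whether the numbers pair the 2 sides of a follicle. With the replicate block 4455, 4989, 1414, 1743 and 992 genes were called (hCG unruptured, hCG ruptured, sides without hCG, sides post-hCG, interaction), against 4947, 5129, 1613, 1833 and 892. Under the block *Adam17* between the sides without hCG had 0.30 (FDR = 0.0794) and *Btc* with hCG on the ruptured side 0.66 (FDR = 0.0386).

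Depth limits the low members most. Median counts per library were 2.0, 2.5 and 6.0 for *Areg* in the groups other than the unruptured side post-hCG, and between 2.0 and 6.0 for *Hbegf* in all 4.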

Other observations

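The balance of the 2 neighbouring ligands *Ereg* and *Areg* also varied between groups. In libraries with *Areg* counts, the ratio of *Ereg* to *Areg* TPM had a median of 1.15 on the unruptured and 0.466 on the ruptured side without hCG, and of 1.8 and 3.05 post-hCG. The ratios overlapped between all groups, with ranges of 0.228 to 2.36, 0 to 4.9, 1.18 to 6.89 and 0.958 to 9.64 in the same order. Both genes together had a median of 13 and 8 counts per library without hCG, so the ratios without hCG rest on few counts. No test was run on them.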
